A study of Mus musculus with 6 samples.

Results

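The 10 genes described here handle iron, haem and related metals and were measured in fibrotic mouse liver: Hp and Hpx, which encode the plasma scavengers haptoglobin and hemopexin; Hamp, which encodes the hormone hepcidin; Slc40a1, Tfrc and Slc39a14, which encode membrane transporters and a receptor; Fth1 and Ftl1, which encode the ferritin subunits; and Mt1 and Mt2, which encode metallothioneins. They were taken by name, as the rows of the deposited count table whose Ensembl identifier maps to these symbols. All 10 were found among 41388 identifiers, and all 10 passed the filter on low counts that 15939 genes passed. The data were bulk RNA sequencing of liver, with tissue from each lobe, in 6 libraries from BALB/c mice that had all received carbon tetrachloride (CCl4), a hepatotoxin that scars the liver, for 5 weeks. The 3 AL/NP libraries came from mice injected 2 times a week during the last 2 weeks with nanoparticles carrying alendronate, a bisphosphonate that phagocytes take up, at 4 mg/kg, a dose that the sample titles call high. The 3 control libraries are labelled untreated and fibrotic control, although the injection note is repeated on their records. The labels give neither age nor sex, nor say whether controls were injected with a drug-free solution, and no healthy liver or drug-free nanogel was analysed here. They number the replicates without stating that each is a separate animal, so p-values measure only the spread between these samples, which may be technical.

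As background, the liver is the body's main iron store and the source of the proteins that hold free haemoglobin, haem and iron in plasma. Hepcidin, secreted by hepatocytes, binds ferroportin (Slc40a1), the iron exporter of macrophages, enterocytes and hepatocytes, and causes its degradation. Inside cells, iron regulatory proteins bind hairpins in messenger RNA called iron-responsive elements when iron is low: binding near the 5′ end blocks translation, as in the ferritins and ferroportin, and binding in the 3′ untranslated region stabilises the transferrin receptor messenger. Haptoglobin, hemopexin and hepcidin are also acute phase products, made by hepatocytes in response to interleukin-6 through STAT3. Metallothioneins bind zinc and copper and are induced through metal response elements in their promoters.

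The iron-responsive elements of 4 of the 10 genes are shown first, because they mark which of these messengers carry the letters that iron regulatory proteins are known to bind. A hairpin was counted where an unpaired C, 5 stem bases, a CAGTGN loop and 5 bases pairing with the stem followed each other in an untranslated region of a GENCODE M21 coding transcript (build GRCm38). It was found in 153 of 21386 protein-coding genes (0.715%), in the 5′ untranslated region of 28 genes and in the 3′ untranslated region of 125. Each site is written 5′ to 3′ in the transcript's direction, with the loop in capitals.
Fth1, chr19:9982732-9982760 on the plus strand: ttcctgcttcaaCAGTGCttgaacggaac
Ftl1, chr7:45459779-45459807 on the minus strand: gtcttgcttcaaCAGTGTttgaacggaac
Slc40a1, chr1:45925465-45925493 on the minus strand: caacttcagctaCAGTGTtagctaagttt
Tfrc element 1, chr16:32631219-32631247 on the plus strand: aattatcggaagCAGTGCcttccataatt
Tfrc element 2, chr16:32631598-32631626 on the plus strand: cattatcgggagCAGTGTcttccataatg
Tfrc element 3, chr16:32631663-32631691 on the plus strand: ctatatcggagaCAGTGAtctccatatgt
Tfrc element 4, chr16:32631710-32631738 on the plus strand: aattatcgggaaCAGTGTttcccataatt
Fth1, Ftl1 and Slc40a1 each held 1 site, in the 5′ untranslated region, with the loop starting at base 99, 90 and 102 of the transcript. Tfrc held 4, all in the 3′ untranslated region, with loops starting at bases 3327, 3706, 3771 and 3818 of a transcript of 4890 bases whose coding sequence ends at base 2429, and no gene held more than 4. Hp, Hpx, Hamp, Mt1, Mt2 and Slc39a14 held no match. The rule requires this loop and all 5 stem pairs, so elements that depart from it were not counted in any gene. A match is a description of the letters and not evidence of binding in these livers.

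**Figure D1:**
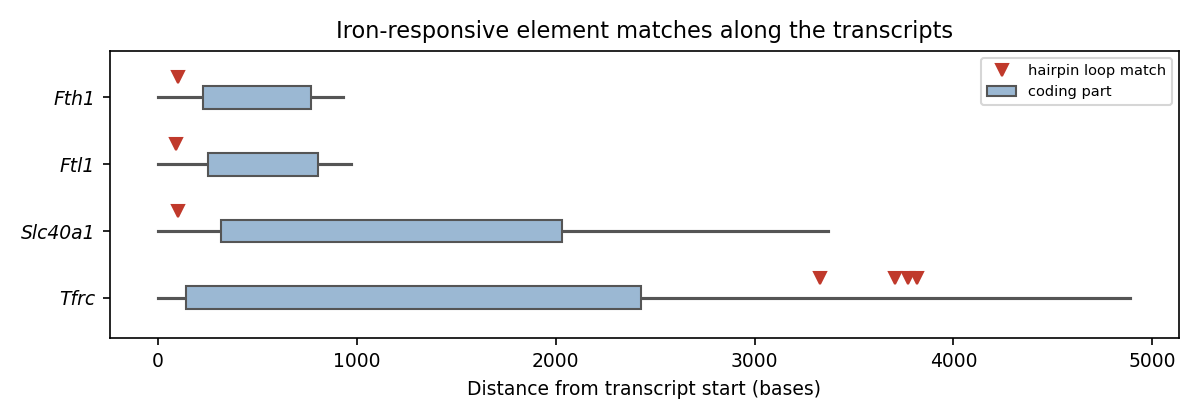
Position of the iron-responsive hairpins along the Fth1, Ftl1, Slc40a1 and Tfrc transcripts, with distance from the transcript start in bases on the horizontal axis and the coding sequence drawn as the thick bar. The single sites of Fth1, Ftl1 and Slc40a1 sit before the coding sequence and the 4 sites of Tfrc after it.

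Library totals ranged from 30554483 to 39838428 counts, so that 3 counts equal 0.0753 to 0.0982 CPM, the usual library-scaled count, a limit that covers counting error only. Values below are CPM after scaling with trimmed means of M values (TMM). Control replicate 3 stood apart: 26.7% of its counts were mitochondrial, against 11.96% to 19.8% in the other 5 libraries, and its TMM factor was 0.809, against 0.937 to 1.13. The 8 hepatocyte markers were all detected, and their summed level was 55069 to 63583 CPM in AL/NP and 64102 to 84003 CPM in control libraries, with 2 of 8 higher on average in AL/NP (Serpina1a, log2 0.70, and Fgb, log2 0.41). Summed macrophage markers were 404 to 693 CPM against 194 to 313 CPM, with 8 of 8 higher on average in AL/NP. Summed neutrophil markers were 33.4 to 71.7 CPM against 17.5 to 32.3 CPM, also with 8 of 8 higher. Only 4 neutrophil markers passed the filter on low counts. Ly6g, Mpo, Elane and Camp, with 16 to 109 counts over the 6 libraries, did not. The groups did not overlap for 4 of 8 macrophage and 3 of 4 tested neutrophil markers, against 14.5% of all tested genes that were higher without overlap. None of the tested ones passed an adjusted p of 0.05 in the edgeR test used below. Kupffer cell markers (76.4 to 118 against 50.8 to 79.2 CPM, 5 of 6 higher), erythroid markers (371 to 961 against 429 to 876 CPM, 7 of the 7 found higher), stellate cell markers (303 to 664 against 327 to 850 CPM, 1 of 8 higher) and sinusoidal endothelial markers (156 to 186 against 145 to 199 CPM, 5 of 8 higher) overlapped between the groups. No marker found in the table was at 0 in every library.

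The question of the comparison was which transcripts differ in fibrotic liver after AL/NP. Hp and Hpx had more than double the control level, Mt1 and Mt2 averaged higher with a wide spread, and Fth1 averaged somewhat higher. Slc40a1 and Hamp averaged somewhat lower (log2 -0.45 and -0.34) with overlapping groups, Hamp only while control replicate 3 was included. Tfrc, Slc39a14 and Ftl1 had fitted log2 values of -0.083, 0.13 and 0.22. By edgeR's quasi-likelihood test with Benjamini-Hochberg adjustment over all 15939 genes, none of the 10 passed an adjusted p of 0.05, where 0.0816% of all tested genes did. At an unadjusted p under 0.05, 3 passed (Hp, Hpx and Mt1, all higher). Of all tested genes, 9.37% were higher and 10.3% lower at that threshold. Another tool, DESeq2, called 2 of the 10, Hp and Hpx, both higher, where it called 5.07% of 16645 genes and 2.59% as higher. At an edgeR adjusted p under 0.1 the same 2 genes passed, against 0.552% of all tested genes that were higher. The lowest AL/NP library exceeded the highest control library in 4 genes (Hp, Hpx, Ftl1 and Mt1), against 14.5% of all tested genes, and the reverse held for none of the 10, against 15% of all tested genes. The median log2 fold change was 0.41 over the 10 genes and -0.00025 over all tested genes. Together the 10 genes took 2.53% to 2.73% of all counts in AL/NP libraries and 1.19% to 1.70% in control libraries. Hp and Hpx alone took 1.28% to 1.70% and 0.510% to 0.795%. These are shares of unscaled totals, of which 11.96% to 16.97% were mitochondrial in AL/NP and 16.2% to 26.7% in control libraries.

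**Figure D2:**
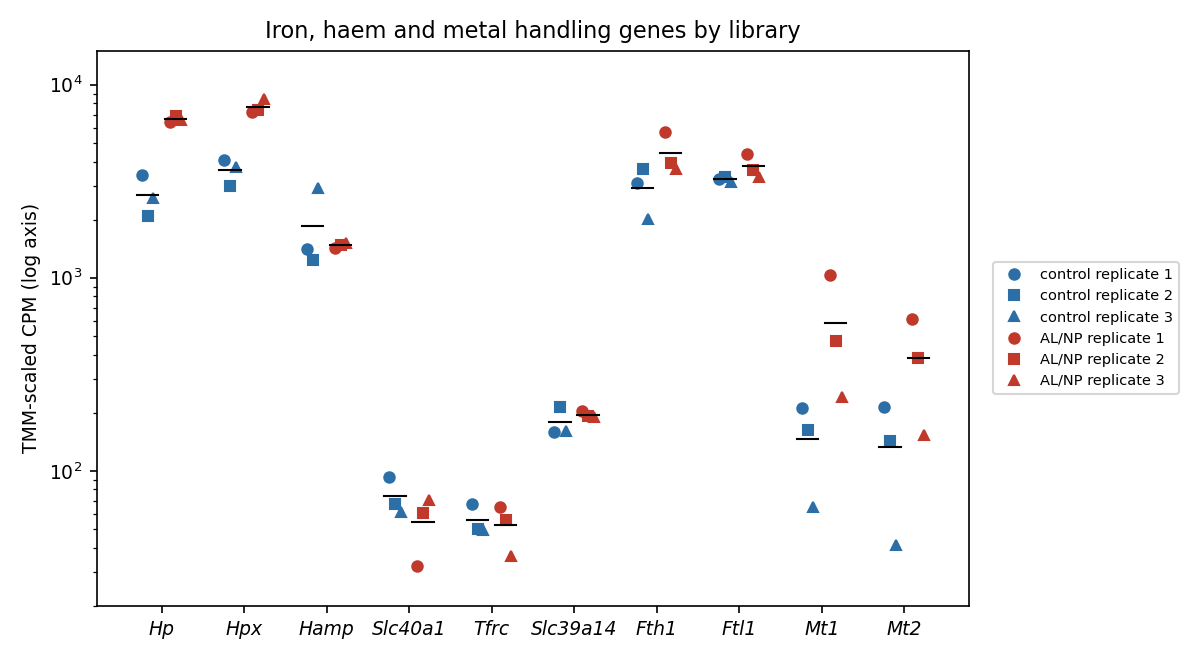
TMM-scaled CPM on a log axis of the 10 genes in each of the 6 libraries, control in blue and AL/NP in red, with a horizontal line at each group mean (n = 3). The AL/NP points of Hp, Hpx, Ftl1 and Mt1 lie above all control points, for Ftl1 only just. Points of Mt1 and Mt2 spread over more than 3-fold within each group, and Hamp is set apart by control replicate 3.

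Hp, the gene of haptoglobin, which binds haemoglobin released from red cells, was the clearest of the 10. It lies on chromosome 8 (GRCm38, 109575128 to 109579172, minus strand, ENSMUSG00000031722). It measured 6403, 6916 and 6564 CPM in AL/NP replicates 1 to 3 and 3412, 2088 and 2578 CPM in control replicates 1 to 3. The 3 AL/NP libraries lay within 1.08-fold of each other, and the highest control library was well below the lowest of them. The means were 6628 ± 262 and 2693 ± 669 CPM (SD, n = 3 each), a fitted 2.46-fold higher level (log2 1.30, SE 0.234, 95% interval 0.77 to 1.83, edgeR adjusted p = 0.0903; DESeq2 adjusted p = 1.6e-06). In bulk tissue, fewer cells of a type and less RNA per cell cannot be told apart, nor can more cells and more RNA per cell.

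Hpx, the gene of hemopexin, which carries free haem to hepatocytes, also separated the libraries by group. It lies on chromosome 7 (105591613 to 105600137, minus strand, ENSMUSG00000030895) and measured 7221, 7371 and 8483 CPM in AL/NP and 4052, 2996 and 3738 CPM in control replicates 1 to 3. The groups did not overlap. Its means were 7692 ± 689 and 3595 ± 542 CPM (SD, n = 3 each), a 2.14-fold higher level (log2 1.10, SE 0.213, 95% interval 0.61 to 1.58, edgeR adjusted p = 0.0970; DESeq2 adjusted p = 1.9e-06). Both genes kept this direction in all 15 alternative analyses, with log2 fold changes of 1.13 to 1.51 for Hp and 0.97 to 1.24 for Hpx. Summed hepatocyte markers, of which 6 of 8 averaged lower and 2 higher, were lower in the AL/NP libraries. The margin was narrow, with a highest AL/NP sum of 63583 CPM and a lowest control sum of 64102 CPM. Alb made up most of this sum, with means of 40254 CPM in AL/NP and 47339 CPM in control libraries. Summed macrophage and neutrophil markers were higher. None of these 3 sums overlapped between the groups, and their part in the Hp and Hpx values was not tested.

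Hamp, the gene of hepcidin, did not differ beyond the spread of the controls. It lies on chromosome 7 (30942368 to 30944032, minus strand, ENSMUSG00000050440). Its CPM were 1423, 1473 and 1514 in AL/NP and 1412, 1235 and 2920.04 in control replicates 1 to 3. The AL/NP libraries lay within 1.06-fold of each other and between the controls, and control replicate 3 was 2.36 times the lowest control. The means were 1470.0 ± 45.3 and 1856 ± 926 CPM (SD, n = 3 each), a log2 fold change of -0.34 (SE 0.315, 95% interval -1.05 to 0.38, edgeR adjusted p = 0.561). Without control replicate 3 the log2 fold change was 0.15.

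Hamp2, the second mouse hepcidin gene, showed the same library out of place, at 38.5, 40.4 and 31.5 CPM in AL/NP and 46.5, 39.3 and 205 CPM in control replicates 1 to 3. The high value was again control replicate 3. Per 100 counts of Hamp, it had 2.71, 2.74 and 2.08 counts in AL/NP and 3.29, 3.18 and 7.04 in control replicates 1 to 3, so the pair did not keep a fixed ratio in that library. The log2 fold change of Hamp2 was -1.40 (SE 0.609, edgeR adjusted p = 0.260), and -0.22 without control replicate 3. Hjv, listed under its older symbol Hfe2, encodes hemojuvelin, a co-receptor for bone morphogenetic proteins in the control of hepcidin. Named here after its values were seen, Hjv measured 3.82, 20.1 and 28.6 CPM in AL/NP and 39.8, 36.7 and 96.7 CPM in control replicates 1 to 3. It too was highest in control replicate 3, and its log2 fold change was -1.72 (SE 0.688, edgeR adjusted p = 0.236), or -1.13 without that library.

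The upstream sequences of Hamp and Hamp2 are shown because the letters of the known STAT and bone morphogenetic protein (BMP) response elements of hepcidin can be read in them. They are the 130 bases before the RefSeq start (GRCm38.p6), 5′ to 3′ in the gene's direction, with matches in capitals.
Hamp, chr7:30944030-30944159 on the minus strand: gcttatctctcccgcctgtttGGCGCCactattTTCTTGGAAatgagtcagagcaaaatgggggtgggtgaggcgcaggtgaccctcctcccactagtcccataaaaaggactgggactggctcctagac
Hamp2, chr7:30924182-30924311 on the minus strand: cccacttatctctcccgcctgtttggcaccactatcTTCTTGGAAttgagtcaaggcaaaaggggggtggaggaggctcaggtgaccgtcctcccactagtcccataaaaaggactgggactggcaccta
TTCNNNGAA, a STAT-type motif that reads the same on both strands, began at position -97 from the start of Hamp and at -94 from that of Hamp2. It was present in 8.30% of the 32851 RefSeq windows of 300 bases. GGCGCC, the core of the BMP response element, also the same on both strands, began at -109 in Hamp and was not matched in the Hamp2 window, and 11.9% of windows held it. Of the 10 genes, 7 had a RefSeq window; Hp, Slc40a1 and Slc39a14 had none. Neither motif was matched in the windows of Hpx, Fth1, Ftl1, Mt1 or Mt2, while a Tfrc window held GGCGCC at -89.

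Slc40a1, the gene of ferroportin, lies on chromosome 1 (45908068 to 45926523, minus strand, ENSMUSG00000025993). It measured 32.1, 60.4 and 70.2 CPM in AL/NP and 93.4, 67.5 and 61.4 CPM in control replicates 1 to 3. The groups overlapped, with AL/NP replicate 1 the lowest and control replicate 1 the highest of the 6. Its means were 54.2 ± 19.7 and 74.1 ± 16.95 CPM (SD, n = 3 each), a log2 fold change of -0.45 (SE 0.286, 95% interval -1.10 to 0.20, edgeR adjusted p = 0.392). Without AL/NP replicate 1 it was -0.18.

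Tfrc, the transferrin receptor through which cells take up transferrin-bound iron, lies on chromosome 16 (32608920 to 32632794, plus strand, ENSMUSG00000022797). Its CPM were 65.3, 55.8 and 36.1 in AL/NP and 67.1, 50.1 and 49.2 in control replicates 1 to 3. The groups overlapped, and AL/NP replicate 3 was the lowest of the 6. The log2 fold change was -0.083 (SE 0.233, 95% interval -0.61 to 0.45, edgeR adjusted p = 0.864), and its sign turned when AL/NP replicate 3 (0.12) or control replicate 1 (0.076) was left out and with scaling by library totals (0.010). These values give Tfrc no direction.

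Slc39a14, a zinc, iron and manganese importer of hepatocytes also known as ZIP14, lies on chromosome 14 (70303469 to 70351425, minus strand, ENSMUSG00000022094). It was nearly flat, at 203, 193 and 189.7 CPM in AL/NP and 159, 215 and 161 CPM in control replicates 1 to 3. The AL/NP libraries lay inside the range of the controls. The log2 fold change was 0.13 (SE 0.168, 95% interval -0.25 to 0.51, edgeR adjusted p = 0.676). The interval holds no change as large as that fitted for Hp or Hpx.

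Fth1, the ferritin heavy chain, which oxidises iron for storage, lies on chromosome 19 (9980598 to 9985098, plus strand, ENSMUSG00000024661). It measured 5710.0, 3948 and 3639 CPM in AL/NP and 3085, 3662 and 2008 CPM in control replicates 1 to 3. AL/NP replicate 1 was highest and control replicate 3 lowest, and control replicate 2 lay inside the AL/NP range. Its means were 4432 ± 1117 and 2918 ± 839 CPM (SD, n = 3 each), a log2 fold change of 0.60 (SE 0.283, 95% interval -0.040 to 1.25, edgeR adjusted p = 0.276). Leaving out AL/NP replicate 1 gave 0.38, and leaving out control replicate 3 gave 0.39.

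Ftl1, the ferritin light chain, which helps to form the iron core, lies on chromosome 7 (45457944 to 45459884, minus strand, ENSMUSG00000050708). It measured 4376, 3608 and 3329.95 CPM in AL/NP and 3266, 3321 and 3121 CPM in control replicates 1 to 3. The groups did not overlap, but AL/NP replicate 3 was only just above control replicate 2. The log2 fold change was 0.22 (SE 0.195, 95% interval -0.22 to 0.66, edgeR adjusted p = 0.536). Near-identical copies make its counts uncertain: for every 100 counts of Ftl1 the table holds 26.8 to 35.4 of Ftl1-ps1, 6.42 to 15.0 of Ftl2-ps and 1.93 to 2.34 of Ftl1-ps2, and how reads with several matches were treated is not given in the sources used here. The sum of Ftl1 and the 3 copies was 5623 ± 698 CPM in AL/NP and 4597 ± 328 CPM in control libraries (SD, n = 3 each).

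Mt1 and Mt2, neighbours on the plus strand of chromosome 8 (94179082 to 94180327, ENSMUSG00000031765, and 94172664 to 94173568, ENSMUSG00000031762), had the widest spread of the 10. Mt1 measured 1034, 469 and 241 CPM in AL/NP and 213, 163 and 64.5 CPM in control replicates 1 to 3. The groups did not overlap, although AL/NP replicate 3 was only slightly above control replicate 1. Its means were 581 ± 408 and 147 ± 75.4 CPM (SD, n = 3 each), a fitted 3.96-fold higher level (log2 1.99, SE 0.594, 95% interval 0.61 to 3.37, edgeR adjusted p = 0.161). Without AL/NP replicate 1 it was 2.42-fold (log2 1.28).

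Mt2 measured 611, 383 and 153 CPM in AL/NP and 213, 143 and 41.3 CPM in control replicates 1 to 3. The groups overlapped, since AL/NP replicate 3 lay below control replicate 1. Its means were 382 ± 229 and 133 ± 86.4 CPM (SD, n = 3 each), a 2.88-fold higher level (log2 1.53, SE 0.658, 95% interval -0.014 to 3.07, edgeR adjusted p = 0.257), with a log2 value of 1.014 when AL/NP replicate 1 was left out and 2.05 when control replicate 1 was left out. The highest library was 4.29 times the lowest within AL/NP and 3.30 times within control for Mt1, and 4.00 and 5.15 times for Mt2. By comparison, Hp spanned 1.08-fold and 1.63-fold. The order of the libraries was the same for both metallothioneins, except that AL/NP replicate 3 and control replicate 1 changed places. Within each group both genes fell from replicate 1 to replicate 3.

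The upstream sequences of Mt1 and Mt2 are shown for the metal response element cores TGCACNC and TGCGCNC, which were searched on both strands. Each is the 130 bases before the RefSeq start (GRCm38.p6), 5′ to 3′, with matches in capitals.
Mt1, chr8:94178959-94179088 on the plus strand: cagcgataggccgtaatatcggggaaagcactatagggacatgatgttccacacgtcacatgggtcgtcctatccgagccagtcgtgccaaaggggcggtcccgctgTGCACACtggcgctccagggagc
Mt2, chr8:94172488-94172617 on the plus strand: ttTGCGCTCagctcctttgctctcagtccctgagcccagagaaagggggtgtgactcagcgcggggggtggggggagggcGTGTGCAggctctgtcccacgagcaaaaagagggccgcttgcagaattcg
The Mt1 window of 250 bases before and 50 after the start held 3 matches. They began at -23, in the stretch shown, and at bases 3 and 21 after the start. The Mt2 window held 4, at -128 and -50 in the stretch shown, at -223, and at base 5 after the start. The GENCODE gene of Mt2 starts at 94172664, downstream of the RefSeq start used here. All 4 Mt2 matches therefore lie before the GENCODE start. Sequence outside the windows was not searched, so these are not full counts for the promoters. At least 1 core was present in 25.7% of all windows and at least 4 in 0.517%. The only other window of the 10 genes with a core was one of Tfrc, with 2 overlapping matches on opposite strands.

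**Figure D3:**
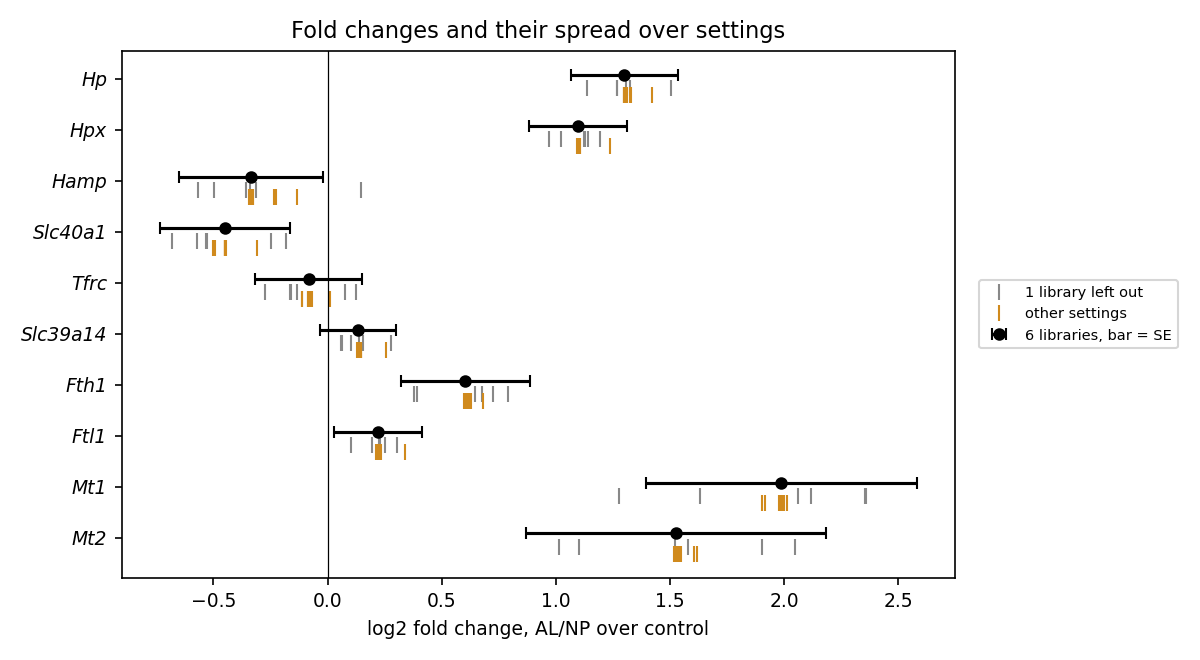
Log2 fold change of each of the 10 genes, AL/NP over control, with black points for the 6 libraries and bars for 1 SE. Grey ticks are the values with 1 library left out and orange ticks those of the other settings. All ticks of Hp, Hpx, Fth1, Ftl1, Mt1, Mt2 and Slc39a14 lie above 0 and all those of Slc40a1 below it, while Hamp and Tfrc have ticks on both sides.

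Levels of different genes were compared per kilobase of transcript (RPKM, on the first-listed GENCODE coding transcript, mean ± SD, n = 3 each). In control libraries the order was Hamp at 4527 ± 2258, Ftl1 at 3343 ± 107, Fth1 at 3141 ± 903, Hpx at 2398 ± 362 and Hp at 2002 ± 498 RPKM, and each of these 5 overlapped its neighbour. Lower down were Mt1 at 267 ± 137, Mt2 at 259 ± 169, Slc39a14 at 85.0 ± 15.0, Slc40a1 at 22.0 ± 5.03 and Tfrc at 11.3 ± 2.07 RPKM. Mt1 and Mt2 overlapped each other and Mt2 overlapped Slc39a14, whereas Hp and Mt1, Slc39a14 and Slc40a1, and Slc40a1 and Tfrc did not overlap. In AL/NP libraries Hpx, at 5131 ± 460, and Hp, at 4928 ± 195 RPKM, headed the order, above Fth1 at 4771 ± 1203, Ftl1 at 3896 ± 560 and Hamp at 3585 ± 111 RPKM. Each of these 5 overlapped its neighbour there as well, down to Ftl1 and Hamp. With the length of all annotated exons in place of that transcript, Hamp and Ftl1 still led the control libraries and Fth1 came 5th, while Mt1 and Mt2 changed places, as did Slc40a1 and Tfrc, so the order of Slc40a1 above Tfrc also depends on the length used.

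Within-library ratios of 2 genes do not depend on library scaling, and 5 were compared by a two-sided exact permutation test, which cannot go below p = 0.1 with 3 against 3 libraries. Iron regulatory proteins stabilise the Tfrc messenger but block Fth1 translation, so a ratio of these messengers does not measure the proteins' activity. The ratio of Tfrc to Fth1 was 0.0114, 0.0141 and 0.00992 in AL/NP and 0.0218, 0.0137 and 0.0245 in control replicates 1 to 3. Control replicate 2 lay inside the AL/NP range, and the mean log2 ratio differed by -0.73 (exact permutation p = 0.2, adjusted over the 5 ratios 0.333). The ferritin ratio of Fth1 to Ftl1 was 1.30, 1.09 and 1.09 in AL/NP and 0.944, 1.10 and 0.643 in control replicates 1 to 3 (log2 difference 0.41, exact permutation p = 0.3, adjusted 0.375). The other 3 differences were 0.30 for Mt1 to Mt2, 0.22 for Hp to Hpx (exact permutation p = 0.2 and adjusted 0.333 for both) and 0.27 for Hamp to Slc40a1 (exact permutation p = 0.6, adjusted 0.6). All 5 ratios overlapped between the groups. Hamp to Slc40a1 had no stable sign: it was 44.3, 24.4 and 21.6 in AL/NP and 15.1, 18.3 and 47.5 in control replicates 1 to 3, and leaving out AL/NP replicate 1 gave -0.041 while leaving out control replicate 1 gave -0.046.

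**Figure D4:**
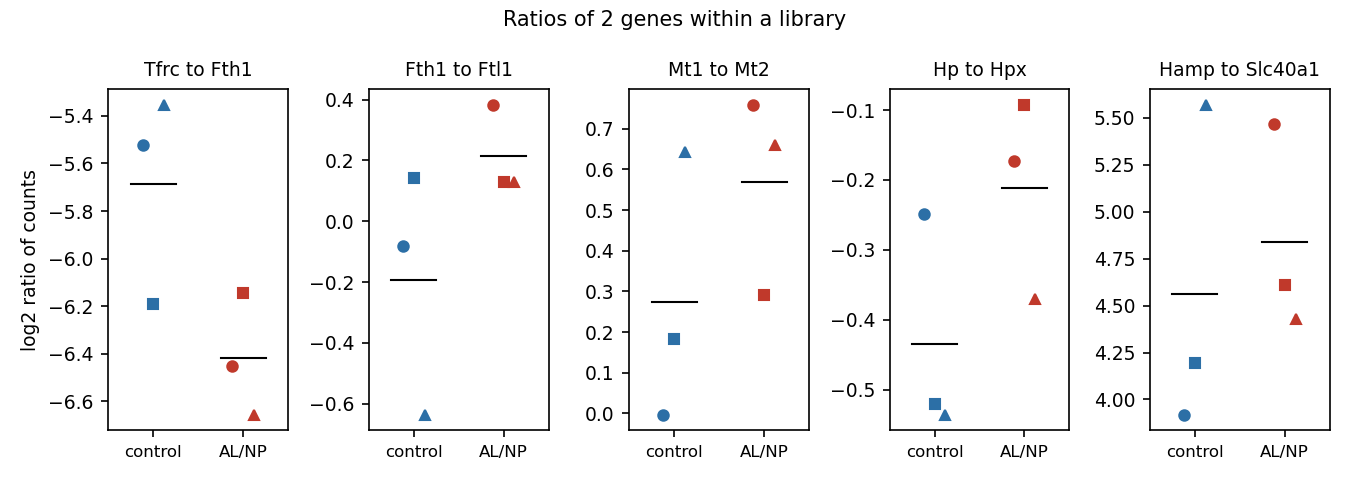
Within-library log2 ratios of counts for 5 gene pairs in each of the 6 libraries, control in blue and AL/NP in red, with circles, squares and triangles for replicates 1, 2 and 3 and a line at each group mean; each panel has its own vertical axis. The groups overlap in all 5 pairs, and the mean of Tfrc to Fth1 is 0.73 lower in AL/NP on the log2 scale.

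The wider pathway was described with 9 lists of 119 genes, which include the 10 and of which 112 were tested. By edgeR none of the 112 passed an adjusted p of 0.05. At an unadjusted p under 0.05, 17 were higher and 11 lower, against 9.37% higher and 10.3% lower of all tested genes, and DESeq2 called 8 of the 112, where it called 5.07% of all genes it tested. The median log2 fold change was 0.076 over the 112 genes and 0.048 over the 102 tested genes outside the 10. Counts of higher and lower genes in each list below are at an unadjusted p under 0.05. They stand beside the same shares of all tested genes, 9.37% higher and 10.3% lower. In each list up to 3 genes with the smallest p are named.

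Among 14 genes of haem scavenging and breakdown, 4 were higher and 3 lower at an unadjusted p under 0.05, with a median log2 fold change of 0.14. Hp and Hpx led, followed by Flvcr2, long described as a haem transporter, at 1.77 ± 0.648 CPM in AL/NP and 3.75 ± 1.05 CPM in control libraries (SD, n = 3 each; log2 -1.08, SE 0.345, edgeR adjusted p = 0.171). The macrophage receptor that takes up haptoglobin bound to haemoglobin is Cd163, which was named after its values were seen. It measured 0.799, 0.385 and 1.04 CPM in AL/NP and 1.55, 1.49 and 2.36 CPM in control replicates 1 to 3. These levels are low, do not overlap and run opposite to those of Hp (log2 -1.28, SE 0.410, edgeR adjusted p = 0.172), while Hmox1, the haem-degrading enzyme, also chosen after its values were seen, was at 18.1 ± 4.00 and 13.5 ± 1.13 CPM (SD, n = 3 each; log2 0.43, edgeR adjusted p = 0.249).

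Of 25 tested genes of hepcidin and its control, 3 were higher and 3 lower at an unadjusted p under 0.05, with a median of -0.054. Smad6, a feedback inhibitor of BMP signalling, measured 6.20 ± 0.345 and 3.72 ± 0.616 CPM in AL/NP and control libraries (SD, n = 3 each; log2 0.74, SE 0.207, edgeR adjusted p = 0.145). Fgl1, a secreted hepatocyte protein reported to lower hepcidin, was at 1105, 1105 and 1010.3 CPM in AL/NP and 803.5, 486 and 380.1 CPM in control replicates 1 to 3 (log2 0.95, SE 0.269, edgeR adjusted p = 0.147). Its groups did not overlap. Bmp2, a BMP ligand of liver endothelium that induces hepcidin, was at 7.68 ± 0.107 and 10.7 ± 1.12 CPM (SD, n = 3 each; log2 -0.48, SE 0.156, edgeR adjusted p = 0.173).

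Of 9 tested genes of iron uptake and transferrin, 3 were higher and none lower at an unadjusted p under 0.05, with a median of 0.068. Lcn2, lipocalin-2, which binds bacterial iron carriers and is made by hepatocytes and neutrophils, measured 449.7, 769 and 885 CPM in AL/NP and 272, 227 and 179.7 CPM in control replicates 1 to 3. The groups did not overlap (log2 1.63, SE 0.276, edgeR adjusted p = 0.0783; DESeq2 adjusted p = 2.3e-06), and the part of the neutrophil markers, which were higher in the same libraries, was not tested. Slc11a2, the divalent metal transporter that brings iron out of endosomes, was at 32.3 ± 1.87 and 23.4 ± 1.70 CPM (SD, n = 3 each; log2 0.47, edgeR adjusted p = 0.146). Slc11a1, its relative in macrophage phagosomes, was at 10.4 ± 2.87 and 5.89 ± 2.67 CPM (SD, n = 3 each; log2 0.82, edgeR adjusted p = 0.229). Trf, transferrin itself, had a log2 fold change of 0.05.

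None of 5 tested storage genes reached an unadjusted p under 0.05, all 5 had values above 0 and the median was 0.22; Pcbp1, an iron chaperone, followed Fth1 at 0.32 (SE 0.155, edgeR adjusted p = 0.288). Of 3 tested export genes none reached it, and the median was 0.26. Cp, ceruloplasmin, the plasma ferroxidase, had a log2 fold change of 0.31 (SE 0.183, edgeR adjusted p = 0.360), and Heph, its membrane-bound relative, had 0.26 at under 1 CPM on average, with a sign that turned when AL/NP replicate 3 or control replicate 1 was left out. Among 6 sensing genes, with a median of -0.065, 1 was lower at an unadjusted p under 0.05. This was Ireb2, the gene of iron regulatory protein 2, at 18.2, 26.5 and 26.2 CPM in AL/NP and 40.3, 37.9 and 46.9 CPM in control replicates 1 to 3. The groups did not overlap (log2 -0.82, SE 0.181, edgeR adjusted p = 0.111; DESeq2 adjusted p = 0.00692). Aco1, which encodes iron regulatory protein 1, and Fbxl5, which marks protein 2 for degradation, had log2 fold changes of 0.12 and 0.14 (edgeR adjusted p = 0.718 and 0.596), and that of Aco1 turned to -0.011 without control replicate 3.

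Of 18 genes of haem synthesis and mitochondrial iron, 3 were higher and 1 lower at an unadjusted p under 0.05, with a median of -0.19. Clpx, a mitochondrial unfoldase that acts on the enzyme opening haem synthesis, measured 67.7, 56.1 and 65.7 CPM in AL/NP and 39.1, 45.3 and 39.6 CPM in control replicates 1 to 3. The groups did not overlap (log2 0.61, SE 0.146, edgeR adjusted p = 0.124; DESeq2 adjusted p = 0.0163). Alas1, that enzyme in liver, was at 302 ± 61.2 and 199.8 ± 28.4 CPM (SD, n = 3 each; log2 0.60, edgeR adjusted p = 0.183) with overlapping groups.

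Of 21 tested metallothionein and zinc transport genes, 4 were higher and none lower at an unadjusted p under 0.05, with a median of 0.21. After Mt1 came Mt3, the brain-type metallothionein, with 1 to 22 counts a library (log2 1.84, SE 0.622, edgeR adjusted p = 0.186), and Slc39a6, a zinc importer, at 5.88 ± 0.509 and 3.22 ± 1.23 CPM (SD, n = 3 each; log2 0.87, edgeR adjusted p = 0.194). Mtf1, the transcription factor that binds metal response elements, named after its values were seen, was at 14.0 and 11.7 CPM on average with overlapping groups (log2 0.25, edgeR adjusted p = 0.402). Of 11 copper genes 6 had log2 values above 0 and 5 below, with a median of 0.012. At an unadjusted p under 0.05 none was higher and 3 were lower. The 3 were Ccs, the copper chaperone of superoxide dismutase (log2 -0.52, edgeR adjusted p = 0.228), Cox17, that of cytochrome oxidase (-0.46, edgeR adjusted p = 0.230), and Atp7b, which sends copper to bile (-0.47, edgeR adjusted p = 0.248).

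**Figure D5:**
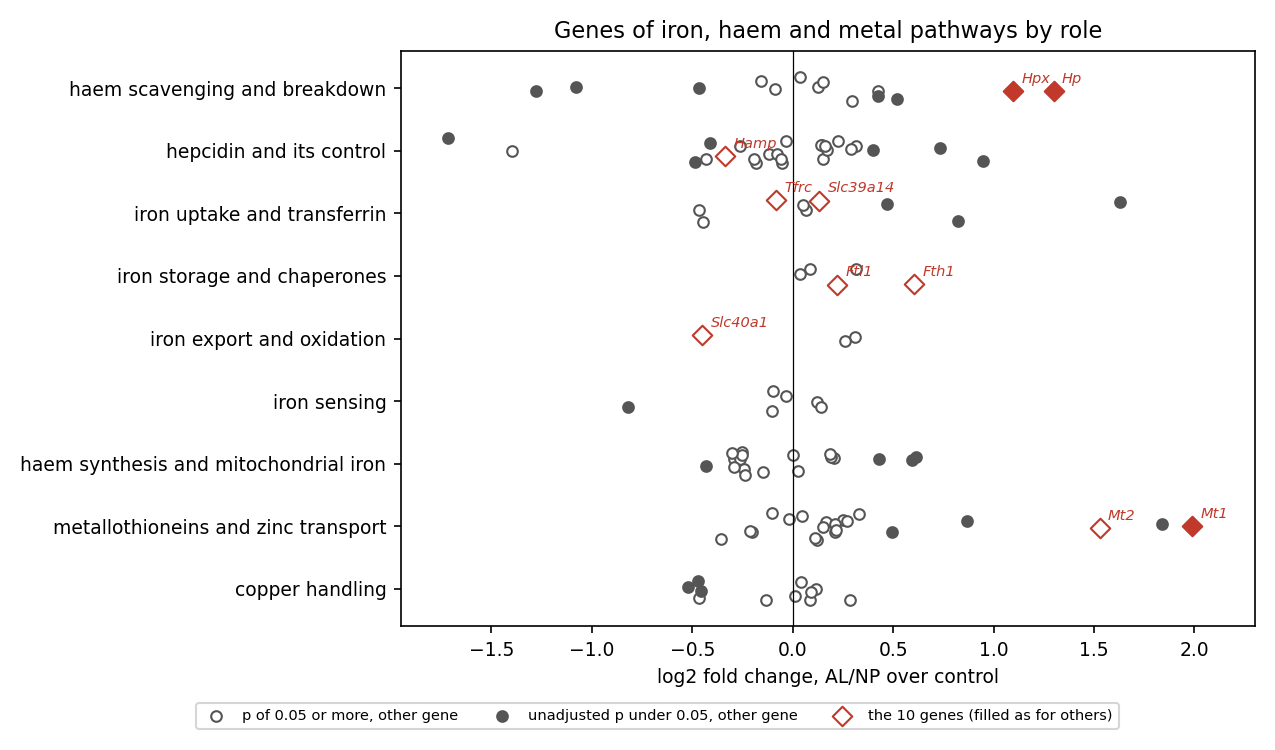
Log2 fold change, AL/NP over control, of the 112 tested genes of the pathway in 9 rows by role, with the 10 genes as red diamonds and others as circles, filled where the unadjusted edgeR p was under 0.05. Hp, Hpx and Mt1 are the filled diamonds, and filled circles lie on both sides of 0.

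Genes with the most similar pattern were found by the root mean square difference of centred log2 CPM over the 6 libraries, among 13713 genes with a mean of at least 1 CPM. Hp and Hpx were near each other: Hpx was the second nearest gene to Hp (0.167), after S100a4 (0.152), which was also nearest to Hpx (0.108), followed by Dok2 (0.113). Mt1 and Mt2 were each other's nearest gene (0.281), followed by Plin4 for Mt1 (0.311) and Ier3 for Mt2 (0.326). For Hamp they were Gstm7 (0.0541) and Agpat1 (0.0712), both with their highest value in control replicate 3. The nearest were Depdc7 (0.0923) and Lrrc8d (0.0950) for Slc40a1, Ppp1r42 (0.0804) and Dapk2 (0.118) for Tfrc, and Tango2 (0.0413) and Gemin2 (0.0659) for Slc39a14. For the ferritins they were Wsb2 (0.0422) and Mrps18b (0.0544) for Fth1 and Cstf3 (0.0228) and Nt5m (0.0245) for Ftl1, so the ferritin chains were not among each other's nearest. These distances describe 6 libraries and are smaller for genes that vary little.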

How the data were processed

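Poly(A)-selected RNA of 6 liver libraries was sequenced, per the labels. The authors deposited raw counts per Ensembl gene identifier. Per the submitters' processing notes, they used GRCm38, STAR 2.6.1a, featureCounts and DESeq2 1.26.0; the strand setting, annotation release and treatment of reads with several matches are not given in the sources used here. All 10 genes were matched by identifier, and no column was left unused. From the counts, genes with too few were removed (filterByExpr, minimum count 10), libraries were scaled with TMM, and edgeR 4.0.16 (R 4.3.3) was run on AL/NP against control with a robust quasi-likelihood fit and Benjamini-Hochberg adjustment over 15939 genes, at a threshold of 0.05. DESeq2 1.42.0, limma-voom 3.58.1, other scalings and filters, a replicate block and leaving out each library were alternatives. The script was tested on simulated counts. No 2 libraries were duplicates (the smallest chi-square per degree of freedom was 30.6). The 10 genes and the lists were chosen with earlier results of these data known. Named genes are the 10, the 3 with the smallest p in each list, and the 2 nearest in pattern to each of the 10; 1 gene under this rule is not reported here, and any other gene named was chosen after its values were seen. Intervals and limits cover the stated error only. Gene positions and transcripts are from GENCODE M21, and promoter windows from RefSeq (GRCm38.p6).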

Additional observations from a re-analysis of the deposited data

How the results depend on the processing

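Over the whole table edgeR called 13 genes (10 higher, 3 lower). It called 0 with library totals in place of TMM (2254 at an unadjusted p under 0.05), 0 with at least 50 counts in 3 libraries (2786), 0 without robust estimation (3133) and 0 to 4 with 1 library left out (2229 to 3022). It called 747 with no filter beyond 1 count (374 higher, 373 lower); limma-voom called 8 and DESeq2 844. Of the 10 genes, 0 were called by edgeR, 2 (Hp and Hpx) with no filter beyond 1 count and 2 (Hp and Hpx) by DESeq2; 3 had an unadjusted p under 0.05 by edgeR and 5 with library totals. Of the pathway genes, 0 were called by edgeR, 5 with no filter beyond 1 count and 9 by DESeq2, among them Ltf, which did not pass the edgeR filter. Library totals moved the median log2 fold change of all tested genes by 0.133.

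Leaving out each library in turn gave log2 fold changes of -0.57 to 0.15 for Hamp (above 0 only when control replicate 3 was dropped), -0.27 to 0.12 for Tfrc (above 0 when AL/NP replicate 3 was dropped and, at 0.076, when control replicate 1 was), -0.086 to 0.50 for Heph (below 0 in the same 2 cases, at -0.083 in the second) and -0.011 to 0.24 for Aco1 (below 0 only when control replicate 3 was dropped). Tfrc was also above 0 with library totals (0.010). The log2 ratio of Hamp to Slc40a1 ranged from -0.046 to 0.78 with 1 library left out. The cause was not tested. Over the 31 genes whose fold changes were recomputed, the other values kept their direction.

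Replicates with the same number did not deviate together over all tested genes (correlations -0.055, 0.043 and 0.075), so the numbers were not taken to pair the samples. Mt1 and Mt2 did fall from replicate 1 to replicate 3 in both groups, which a correlation over all tested genes does not address. With the replicate number as a block, 23 genes were called in the whole table, 2 of the 10 genes (Mt1, edgeR adjusted p = 0.0436, and Mt2, 0.0474) and 2 pathway genes, the same 2. Without the block, the 95% edgeR intervals of Hamp, Slc40a1, Tfrc, Slc39a14, Fth1, Ftl1 and Mt2 include 0.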

Other observations

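Haemoglobin transcripts, which come from red cells in the tissue, did not separate the groups. Hba-a1 averaged 196 CPM in AL/NP and 194 CPM in control libraries (log2 0.012, edgeR adjusted p = 0.990, with log2 values of -0.32 to 0.57 over the alternatives), and Hbb-bs 202 and 137 CPM (log2 0.56, edgeR adjusted p = 0.369). Slc4a1, the red cell anion exchanger, was at 0.743 and 0.110 CPM, without overlap between the groups (log2 2.75, SE 0.664, edgeR adjusted p = 0.124). It had only 85 counts over the 6 libraries, and the log2 value ranged from 2.18 with AL/NP replicate 3 left out to 3.64 with control replicate 3 left out.

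Ltf, lactoferrin, an iron-binding protein of neutrophil granules, did not pass the filter on low counts, with 106 counts over the 6 libraries. It measured 0.174, 0.716 and 1.77 CPM in AL/NP and 0.115, 0.0552 and 0.248 CPM in control replicates 1 to 3, and the groups overlapped. The hepcidin regulators Erfe and Il6 had 41 and 6 counts over the 6 libraries and were not tested either.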
